A study of Mus musculus with 2 samples.

Results

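The 10 genes Flrt2, Adgrl3, Plxna1, Plxnc1, Efna1, Efna5, Alcam, Nlgn3, Lrp8 and Gpc2 encode cell surface receptors and ligands for guidance and adhesion. They were compared between 2 mouse mesoangioblast clones, D16 and D351. The genes were chosen by name, and selected on their intensities in this same comparison, so their differences are a description with no test. They are 10 of 5928 genes with a probe set annotated to a single gene on the array, and together they have 12 probe sets.

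Mesoangioblasts are mesodermal progenitors of the vessel wall. Both clones came from the dorsal aorta of C57BL6 embryos at embryonic day 9.5, grew out of an explant over 5 days, and were cloned at limiting dilution over mitotically arrested embryonic fibroblasts before expansion on gelatin. Each group is therefore 1 clone, of the same strain and stage and with no treatment given, and each clone gave total RNA for 1 oligonucleotide array, the C array of the murine U74 set. With 1 array per clone no difference has a replicate check, which sets the limit on precision. Kdr, a receptor long used to mark these progenitors, read 1.6 in D16 and 9.5 in D351, neither above the brightest negative control.

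Guidance receptors let a cell read short-range cues from its neighbours and from the matrix. FLRT proteins on one cell bind latrophilins, such as the product of Adgrl3, on another, and the pair can join with teneurins. Plexins are the receptors of semaphorins, and ephrin-A ligands, held in the membrane by a lipid anchor, act on Eph receptor kinases. These families were first studied in growing axons and also take part in the patterning of vessels and mesoderm.

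Intensities are arbitrary units as deposited, and a value at or below 6.4, the median of all values of both arrays, is called dim. Dim values were set to that floor, and log2 ratios were formed as D351 minus D16. A fold against a dim value is a lower bound and carries the words "at least". A gene was taken by its brightest probe set. A difference of at least 2-fold is the rule of size. The highest of 38 values of negative control probe sets was 11.2, and 20.7, the 75th percentile of all values, was used as a higher floor. Brightness depends on the probes as well as on the RNA, so levels were not compared between genes except in the distances of likeness below.

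All 10 genes were above the floor in at least 1 clone; 6 of them passed 2-fold towards D16 and 4 towards D351. Higher in D16 were the latrophilin Adgrl3 and its ligand Flrt2, both ephrins, Alcam and Lrp8. Higher in D351 were both plexins, Nlgn3 and Gpc2. Over all 3934 measured genes, 10.2% passed 2-fold towards D16 and 10.3% towards D351, together 20.5%. Because the genes were selected on this contrast, nothing is read from their count against those shares. By probe set, 10 of the 12 were measured and all 10 passed 2-fold, against 19.5% of 6828 measured probe sets.

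**Figure D1:**
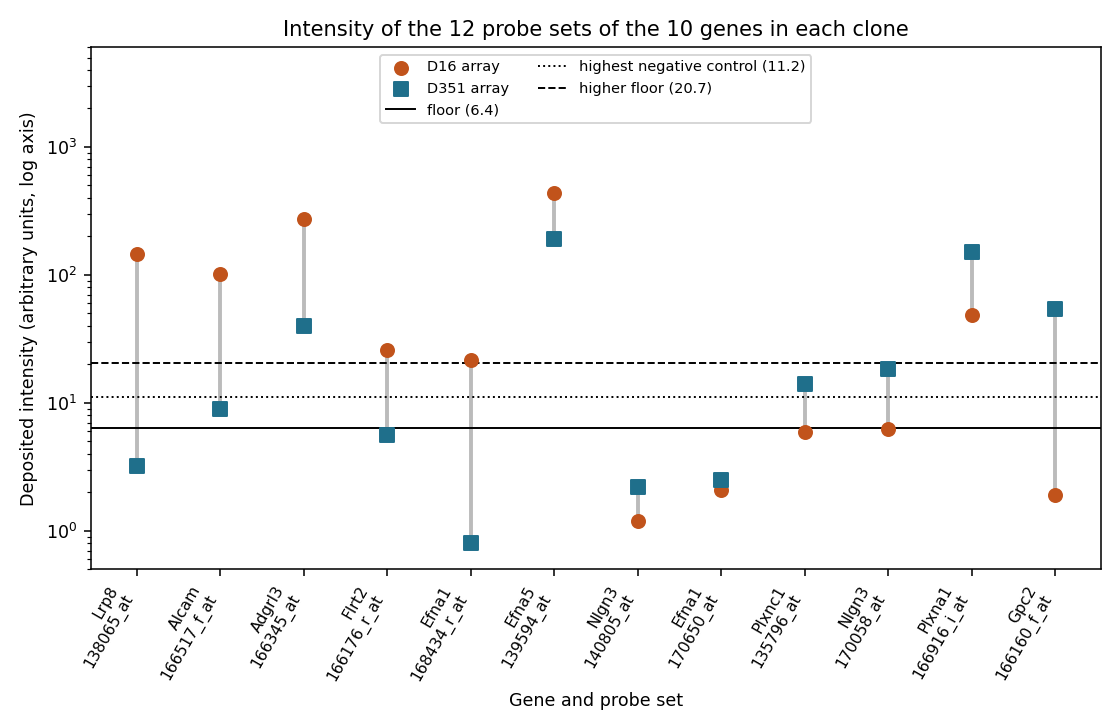
Deposited intensity (arbitrary units, log axis) of each of the 12 probe sets on the D16 array (circles) and the D351 array (squares), joined by a grey bar and ordered by log2 ratio; horizontal lines mark the floor (6.4), the highest negative control (11.2) and the higher floor (20.7). Lrp8, Alcam and Adgrl3 at the left are far higher in D16, Gpc2 at the right is far higher in D351, and the second probe sets of Nlgn3 and Efna1 are dim in both clones.

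The promoters of 4 of these genes are shown because they are the binding pair Adgrl3 and Flrt2 and the gene with the largest bound in each direction with the floor at 6.4, Lrp8 and Gpc2. With the floor at 20.7, the log2 ratio of Plxna1 (1.63) exceeds the bound of Gpc2 (1.39). Each window runs from 250 bases before to 50 bases after the annotated start, from RefSeq on GRCm38.p6, and is written 5′ to 3′ along the gene; the most upstream start was taken where the table lists several. Capitals mark the GC box GGGCGG and the AP-2 type sequence GCCNNNGGC on either strand. The windows lie at chr5:81020321-81020620, plus strand (Adgrl3), chr12:95691976-95692275, plus strand (Flrt2), chr4:107802635-107802934, plus strand (Lrp8) and chr5:138279888-138280187, minus strand (Gpc2).
Adgrl3: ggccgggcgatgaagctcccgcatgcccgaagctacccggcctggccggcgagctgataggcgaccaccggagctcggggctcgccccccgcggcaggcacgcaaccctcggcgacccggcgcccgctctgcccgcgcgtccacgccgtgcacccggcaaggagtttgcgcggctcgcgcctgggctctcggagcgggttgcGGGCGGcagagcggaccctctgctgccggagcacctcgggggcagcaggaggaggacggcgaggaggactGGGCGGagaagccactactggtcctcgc
Flrt2: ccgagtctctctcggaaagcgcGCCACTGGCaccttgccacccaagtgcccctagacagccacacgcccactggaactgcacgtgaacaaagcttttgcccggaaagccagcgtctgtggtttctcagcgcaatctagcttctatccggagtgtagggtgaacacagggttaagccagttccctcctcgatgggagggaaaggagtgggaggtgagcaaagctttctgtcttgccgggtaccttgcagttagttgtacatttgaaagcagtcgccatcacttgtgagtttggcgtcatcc
Lrp8: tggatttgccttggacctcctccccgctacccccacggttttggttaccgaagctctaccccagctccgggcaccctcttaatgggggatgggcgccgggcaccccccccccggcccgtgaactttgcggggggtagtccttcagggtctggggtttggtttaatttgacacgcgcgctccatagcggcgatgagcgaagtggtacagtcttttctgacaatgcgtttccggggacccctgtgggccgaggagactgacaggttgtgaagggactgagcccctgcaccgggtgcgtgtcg
Gpc2: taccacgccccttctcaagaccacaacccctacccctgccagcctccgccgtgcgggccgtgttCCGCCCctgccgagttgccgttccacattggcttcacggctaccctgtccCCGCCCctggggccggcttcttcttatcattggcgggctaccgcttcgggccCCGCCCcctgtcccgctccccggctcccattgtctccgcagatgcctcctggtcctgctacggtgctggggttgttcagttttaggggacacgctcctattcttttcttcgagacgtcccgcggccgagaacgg

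The Adgrl3 window holds 2 GC boxes and is 75.3% G and C, while the Flrt2 window holds 0 GC boxes, 1 AP-2 type match and 55.3% G and C. The Gpc2 window holds 3 GC boxes, and the Lrp8 window holds neither sequence. Of the 10 genes, 8 were found in the promoter table, and 6 of these 8 windows hold a GC box (Adgrl3, Alcam, Efna1, Efna5, Gpc2 and Plxnc1), against 35.7% of all 32851 windows. These 6 include genes higher in D16 and genes higher in D351. The AP-2 type sequence is in 1 of the 8, against 16.6% of all windows, and TATAAA is in 0 of the 8, against 13.6%. The E box CANNTG is in 4 of the 8, against 72.3%. The 8 windows are rich in G and C (55.3% to 75.3%, where the median of all windows is 52.7%), and a match is a description of letters, not a bound site. The set of all windows holds every listed start of a gene, whereas each of the 8 genes is given by its most upstream start alone.

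Among the ligands, Flrt2, a leucine-rich repeat membrane protein that adheres to or repels cells with the matching receptor, read 25.9 in D16 and 5.6 in D351. It was dim in D351 and at least 4.05-fold higher in D16 (log2 ratio -2.02), but only at least 1.25-fold with the floor at 20.7. Its single probe set, 166176_r_at, carries the manufacturer's letter r, which marks relaxed rules of probe selection. Adgrl3, an adhesion G protein-coupled receptor that binds FLRT proteins and teneurins, read 274.7 in D16 and 39.6 in D351 by its single probe set, 166345_at. It was above the higher floor in both clones and 6.94-fold higher in D16 (log2 ratio -2.79). Receptor and ligand of this binding pair were thus both higher in D16, the receptor with signal in both clones and the ligand near background in D351.

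Of the other partners of Adgrl3 on the array, Flrt3 gave mixed readings and no measured teneurin passed 2-fold. Flrt3, the nearest relative of Flrt2, had 3 measured probe sets. The brightest, 168712_r_at, read 285.1 in D16 and 350.5 in D351 and did not pass 2-fold, while 167905_f_at (114.3 and 35.4) and 167519_f_at (91.6 and 38) were 3.23-fold and 2.41-fold higher in D16. The probe sets of Flrt3 therefore disagree, and no direction is given for it. The teneurin Tenm1 read 16.9 in D16 and 15.4 in D351, Tenm3 9.9 and 3.1 (brightest probe set), and Tenm2 was dim in both.

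The ephrin-A ligands differed in how firmly they could be read. Efna5, which guides axons and boundary formation through Eph receptors, read 436.4 in D16 and 192.6 in D351 (139594_at), 2.27-fold higher in D16 with strong signal in both clones (log2 ratio -1.18). Efna1, an ephrin also known from endothelial cells, read 21.6 in D16 and 0.8 in D351 by 168434_r_at, at least 3.38-fold higher in D16. The second Efna1 probe set, 170650_at, was dim in both, at 2.1 and 2.5. With the floor at 20.7, Efna1 came to at least 1.04-fold, so its call rests on a value close to background. The other measured ephrins did not pass 2-fold: Efna3 read 24.5 in D16 and 24.7 in D351, and Efna2 9.3 and 4.7. Of their receptors, Epha1 read 13.8 and 7.6, Epha5 9.7 and 14.6, and Epha4 was dim in both clones.

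Both plexins were higher in D351. Plxna1, which with a neuropilin forms the receptor for class 3 semaphorins, read 48.4 in D16 and 150.1 in D351 (166916_i_at). It was 3.10-fold higher in D351 (log2 ratio 1.63) and above the higher floor in both clones; the letter i in the identifier marks an incomplete probe set. Plxnc1, the receptor of Sema7a, read 5.9 in D16 and 14.0 in D351 (135796_at), at least 2.19-fold higher in D351. Both of its values lie under 20.7, so with the higher floor Plxnc1 was dim in both clones. The other measured plexins stayed under 2-fold, with the brightest Plxna2 probe set at 15.9 in D16 and 11.4 in D351 and Plxnb1 at 8.0 and 10.3. The semaphorins on the array did not pass 2-fold either. Sema5a read 49.6 in D16 and 30.5 in D351, and Sema3d 28.1 and 33.7.

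Among the other receptors, Lrp8, a lipoprotein receptor family member that binds reelin and passes its signal to the adaptor Dab1, had the largest bound of the 10. It read 145.0 in D16 and 3.2 in D351 (138065_at), at least 22.7-fold higher in D16 (log2 ratio -4.50), a bound that dropped to 7.0-fold with the higher floor. Its adaptor Dab1 read 37.8 in D16 and 29.4 in D351, and Dab2, an adaptor of the same family, 54.2 and 52.9, so neither passed 2-fold.

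Gpc2, a glypican, is a heparan sulfate proteoglycan with a lipid anchor that was first described in the developing nervous system. It read 1.9 in D16 and 54.2 in D351 (166160_f_at), at least 8.47-fold higher in D351 (log2 ratio 3.08), and 2.62-fold as a bound with the higher floor. The letter f marks a probe set that can match several related sequences. The other measured glypicans and syndecans did not pass 2-fold. Gpc1 read 111.7 in D16 and 104.5 in D351, and Sdc4 8.5 and 5.3.

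Of the adhesion molecules, Alcam, which binds to itself on a neighbouring cell and to Cd6 on lymphocytes, read 102.1 in D16 and 9.0 in D351 (166517_f_at). The ratio of these values is 11.3-fold towards D16 (log2 ratio -3.50). Since the D351 value is no higher than the brightest negative control, the bound of at least 4.93-fold from the higher floor is the safer figure. Cd6 was dim in both clones. Nlgn3, a neuroligin that binds neurexins, read 6.3 in D16 and 18.4 in D351 by 170058_at, at least 2.88-fold higher in D351. Its other probe set, 140805_at, read 1.2 and 2.2, dim in both, and with the higher floor both probe sets were dim in both clones. Of its partners, Nrxn3 read 2.0 in D16 and 7.5 in D351, while Nrxn2 and Nlgn2 were dim in both. The scaffold gene Dlg2 read 7.5 and 10.4 by its brightest probe set.

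A guide to measurement error comes from 409 genes with 2 probe sets above the floor on both arrays. Around each other, the log2 ratios of such probe sets had an SD of 0.68 per probe set. It comes from the same 2 arrays and holds no variation between arrays or cultures of a clone, and it was not used to judge the 10 genes. Of these, Adgrl3, Efna5, Plxna1 and Alcam were above the floor in both clones, Alcam at a D351 value inside the negative control range, and the other 6 rest on a bound against a dim value.

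**Figure D2:**
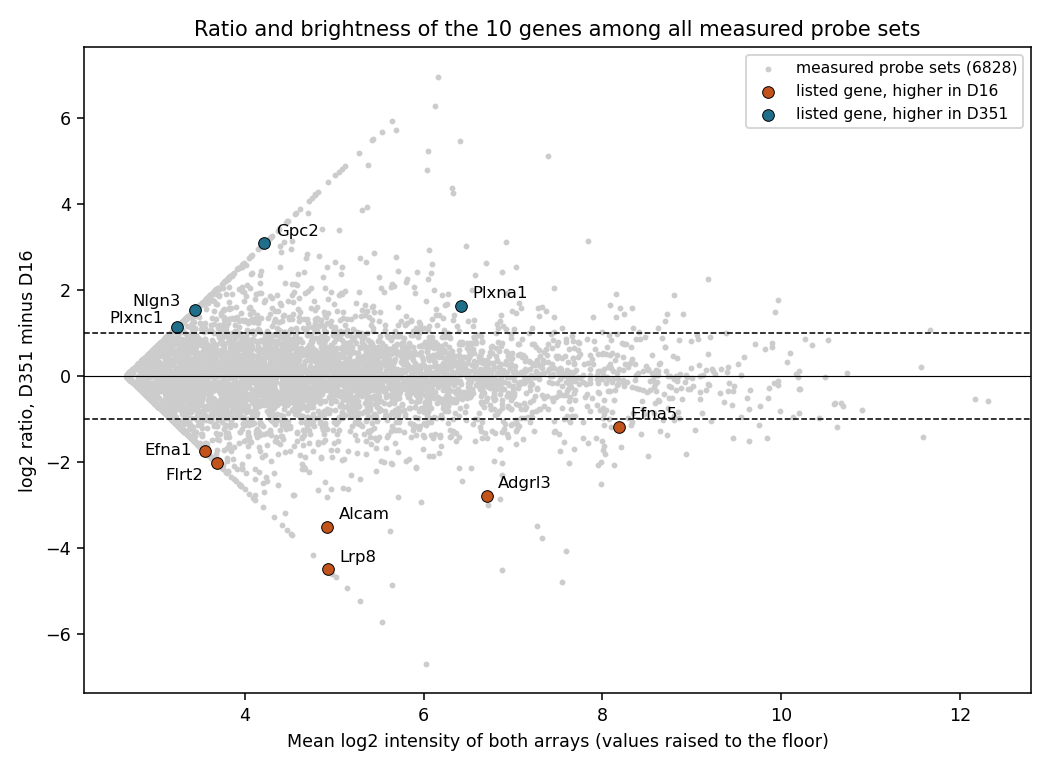
The log2 ratio (D351 minus D16) of the 6828 measured probe sets (grey) against their mean log2 intensity, with the 10 measured probe sets of the listed genes in colour and the 2-fold limits dashed. Adgrl3, Alcam, Efna5 and Plxna1 lie inside the cloud's edges, where both values are above the floor of 6.4 (Alcam at 9.0 in D351, within the negative control range), and the other 6 lie on the diagonal edges formed by values raised to the floor.

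Probe set letters did not divide the directions. Of the 7 probe sets without a letter 5 were measured, 3 higher in D16 (Adgrl3, Efna5 and Lrp8) and 2 in D351 (Plxnc1 and Nlgn3). The 5 with a letter were all measured, 3 higher in D16 (Flrt2, Efna1 and Alcam) and 2 in D351 (Plxna1 and Gpc2). Over the whole array, 19.3% of measured probe sets without a letter and 19.8% of those with one passed 2-fold.

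The families to which these genes belong were described by 12 lists, which name 192 further genes. Of these, 58 are on the array and 34 were measured. Of the 34, 3 (8.82%) passed 2-fold by the brightest probe set, 3 higher in D351 and 0 in D16; this share is low in part by construction, since the 10 listed genes, all past 2-fold, were taken out. The median log2 ratio of the 34 was 0.096, where all measured genes had a median of -0.022. All 3 are immunoglobulin-type adhesion molecules, among 9 further measured genes of that list with a median of 0.25. F11r, which encodes the junctional protein JAM-A, read 5.0 in D16 and 44.6 in D351, at least 6.97-fold higher in D351. Its other probe set lay the same way, at 1.4 and 9.6, but under 2-fold as a bound. Jam2, a junctional relative of F11r, read 1.0 in D16 and 14.9 in D351, and Cadm3, a nectin-like molecule, 5.9 and 14.2, at least 2.33-fold and 2.22-fold higher in D351. With the floor at 20.7, F11r was at least 2.15-fold higher and Jam2 and Cadm3 were dim in both.

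No further gene passed 2-fold by its brightest probe set in the other lists. The 4 measured cadherin and catenin genes had a median of 0.47, and the brightest were Pcdh18 (387.0 in D16 and 394.2 in D351) and Ctnna1 (92.5 and 118.5). Without the listed genes, the medians were -0.13 for 3 genes of the latrophilin, teneurin and FLRT family, -0.058 for 2 plexins, -0.26 for 3 semaphorins and -0.26 for 2 ephrins. They were -0.14 for 2 Eph receptors, 0.35 for 2 genes of the neuroligin list, -0.035 for 3 of the reelin pathway and -0.11 for 3 glypicans and syndecans. Slit2, the one measured gene of the Slit and Robo list, read 21.0 and 27.1, and of the netrin list Dcc and Ntn4 were on the array and dim in both clones. The array holds few genes of each list, so the medians speak for those genes alone.

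**Figure D3:**
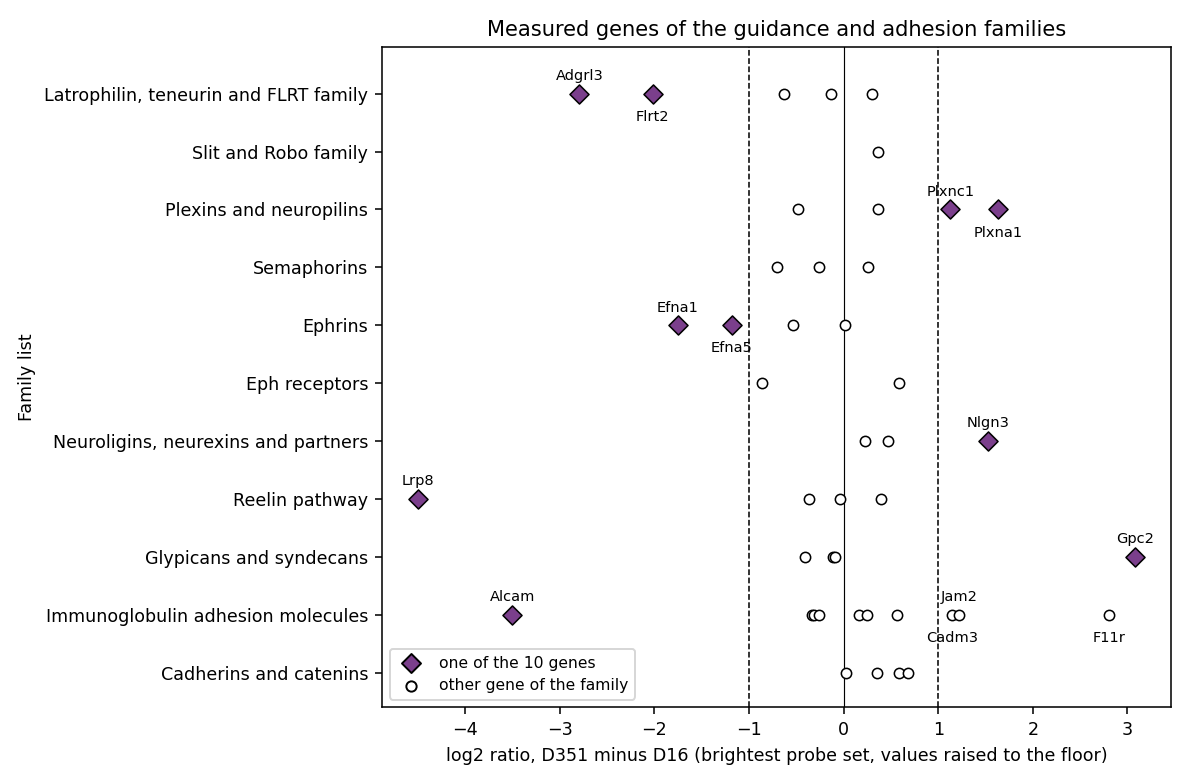
The log2 ratio (D351 minus D16, brightest probe set) of every measured gene of the guidance and adhesion families, 1 row per family list; diamonds are the 10 genes, open circles the other 34, and dashed lines mark 2-fold. The open circles past 2-fold are F11r, Jam2 and Cadm3, and the others lie between the lines.

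Over 2 arrays, likeness can be given only as the distance between 2 genes in the plane of their log2 intensities, taken after dim values were set to the floor. This distance compares levels between genes, so it depends on the probes as well as on the RNA. Nearest to Adgrl3 were Spon2 (297.4 in D16 and 37.2 in D351, distance 0.15) and Ccnd1 (312.6 and 42.7, distance 0.22). Nearest to Alcam were Alad (80.9 and 11.4, distance 0.48) and Slc35f1 (114.8 and 1.2, distance 0.52). Slc35f1 was dim in D351, so its distance is set by the floor. Plxna1 was nearest to Frk (49.9 and 132.1, distance 0.19) and Loxl1 (42.9 and 136.9, distance 0.22).

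Markers of cell types that the cultures could hold also differed between the arrays. In a bulk sample, fewer cells of a type and less RNA per cell cannot be told apart. Of 18 embryonic fibroblast markers, the cell type of the feeder layer, 6 were on the array and 5 measured. By the brightest probe set, 4 passed 2-fold towards D351 (Col5a1, Fgf10, Loxl1 and Mfap5). The summed intensity of the 6 was 781 in D16 and 2548 in D351. Most of it came from Col5a1, at 543.2 and 1838.3 by a probe set with the letter f. Col5a2 and the second probe sets of Col5a1 and Mfap5 were dim in both clones. The second Fgf10 probe set did not pass 2-fold. Of 13 smooth muscle markers 5 were on the array and all 4 measured were higher in D351, with sums of 112 and 1091. Most of the D351 sum came from Itga8 (77.6 in D16 and 678.3 in D351) and Lmod1 (2.6 and 288.2). Synpo2 read 24.7 and 105.2 by its brightest probe set. Acta2 read 4.7 and 15.4 and was dim in both clones with the higher floor, and Myocd was dim in both. Of the 20 neural and neural crest markers 5 were on the array, with sums of 993 and 49.1. The one gene of that list to pass 2-fold was Tfap2a (981 in D16 and 35.6 in D351), while Nes, Elavl4 and Gfap were dim in both clones. The 3 endothelial markers on the array had sums of 22.4 and 101 but went opposite ways, with Flt1 at 1.3 in D16 and 87.6 in D351, Egfl7 at 19.5 and 3.8 and Kdr under 2-fold. Itga2b, the only haematopoietic marker on the array, read 38.7 and 49.9. Epcam and Krt14, the epithelial markers on the array, had sums of 38.7 and 52.2, and 0 marker probe sets were exactly at 0. The part of these cell types in the differences of the 10 genes was not tested.

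Directions are set against the overall mean intensity, which is level between the arrays. The 9 probe sets of the hybridization controls, bacterial and phage transcripts added in known amounts, had a median log2 ratio of -0.67, so they were brighter in D16. Scaled to them, the median of all measured genes became 0.58, Adgrl3 came to -2.13 and Plxna1 to 2.30, while Efna5 came to -0.52 and lost its call. Lrp8, Alcam, Adgrl3, Plxna1 and Gpc2 kept their direction and stayed past 2-fold under every setting that could measure them, as the plot of ratios by setting shows.

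**Figure D4:**
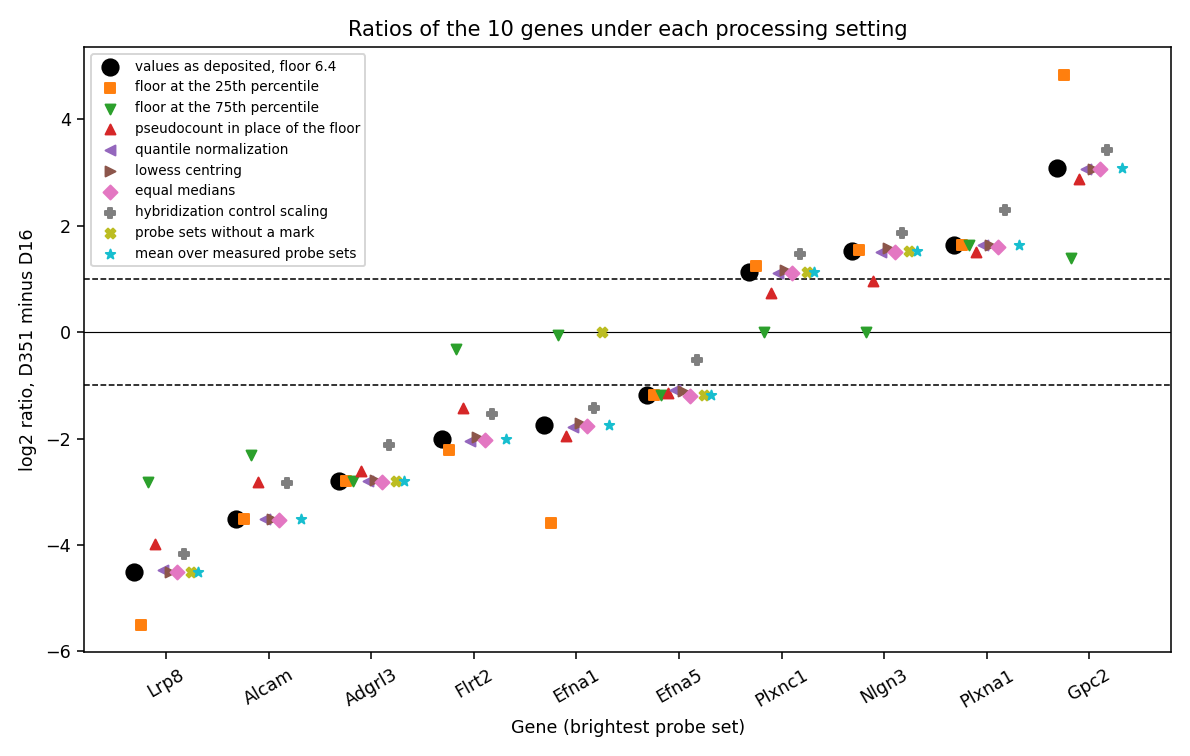
The log2 ratio (D351 minus D16) of each of the 10 genes under the reported setting (large black circles) and 9 other processing settings, with the 2-fold limits dashed; genes measured only by probe sets with a letter have no point for the setting that leaves these out. No gene changes sign, although Plxnc1, Nlgn3 and Efna1 reach 0 where they are dim in both clones, and Flrt2, Efna1, Plxnc1 and Nlgn3 fall inside the limits with the floor at the 75th percentile (20.7).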

How the data were processed

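RNA of 2 clones was measured on 1 array each, and the authors deposited 1 linear intensity per probe set and array. The software that made these intensities is not given in the sources used here. The mean without the lowest and highest 2% was 20.01 on both arrays, and the intensities were used as deposited. Of 11934 probe sets, 66 were controls; of the other 11868, 7717 had a single gene in the platform annotation, 150 several and 4001 were unnamed here, and the gene identifiers of 7677 of the 7717 were found in the RefSeq table of GRCm38.p6.

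The floor of 6.4, the 2-fold rule and the log2 ratio are as described above. From each family list up to 3 further genes past 2-fold in each direction were named, or the 2 brightest measured where there was none, together with binding partners of the 10 genes; the 2 nearest genes were named for the 3 with the largest ratio above the floor in both clones. The members, lists, motifs and settings were chosen with earlier results of these data known. Alternatives were floors at the 25th and 75th percentile, a pseudocount of 6.4, quantile normalization, lowess centring (span 0.3), equal medians, scaling to the hybridization controls, a 3-fold rule, probe sets without a letter, and averaging the measured probe sets of each gene. As a check of the code, the ratio rule was run on simulated arrays with large changes planted in bright probe sets. That run cannot speak for dim values or for differences close to 2-fold. With 1 array per clone there was no test. Python 3.11.15, numpy 2.4.6, pandas 2.3.3, statsmodels 0.14.6 and matplotlib 3.10.9 were used.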

Additional observations from a re-analysis of the deposited data

How the results depend on the processing

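No paired analysis was possible because each clone has 1 array and the result comes from no test. Of the 10 genes, Adgrl3, Alcam, Gpc2, Lrp8 and Plxna1 kept direction and call under every alternative that gave them a value, 9 or 10 each, and no gene reversed. With the floor at the 75th percentile, 6 genes and 6 probe sets passed 2-fold, 2 genes of them higher in D351; Flrt2 came to -0.32 and Efna1 to -0.061, and Plxnc1 and Nlgn3 were dim in both. With a pseudocount, Plxnc1 was 0.73 and Nlgn3 0.97, leaving 2 of 10 measured genes higher in D351, beside 326 of 3929 over all genes. The 3-fold rule also left 2 of 10, beside 180 of 3934, with Efna5 lost as well. Without lettered probe sets, all 5 measured genes and all 5 measured probe sets passed, 3 genes higher in D16 and 2 in D351. The rest had only lettered probe sets or, for Efna1, a dim one. Over all 2524 genes measured that way, 265 were higher in D351 and 254 in D16. Because the 10 genes were selected on this contrast, nothing is read from their counts against those over all genes. Of the further family genes, the number higher in D351 was 1 with the floor at the 75th percentile, 1 with the 3-fold rule and 12 when scaled to the hybridization controls, where their median was 0.63 and that of all genes 0.58; the number higher in D16 was 1 with the floor at the 25th percentile. Against all 10 genes, brightness over background limits Plxnc1, Nlgn3, Flrt2 and Efna1 most; their highest values were 14.0, 18.4, 25.9 and 21.6.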
